A study of Caenorhabditis elegans with 9 samples.

Results

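The mRNA levels of 10 genes that build and align meiotic chromosomes in *Caenorhabditis elegans* were followed in wild-type animals and in *hrde-1* and *hrde-2* mutants. The genes were *syp-1*, *syp-2*, *syp-3* and *syp-4*, *him-3*, *htp-1* and *htp-3*, *rec-8* and *coh-3*, and *him-8*. They were chosen by function, as a listed set of synaptonemal complex, chromosome axis and pairing genes. The rule uses no expression value, but it and the gene lists used beside it were drawn up with earlier results of these data known. All 10 were found by WormBase symbol among the 31106 genes counted, and all 10 passed the filter on low counts that left 12141 genes for testing.

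In meiotic prophase each chromosome is organized along a protein axis, and homologous chromosomes pair and are then held together by the synaptonemal complex that forms between their axes. SYP-1, SYP-2, SYP-3 and SYP-4 are structural proteins of the central region of that complex. HIM-3, HTP-1 and HTP-3 are axis proteins with a HORMA domain, REC-8 and COH-3 are alternative meiotic kleisins, the subunits that close the cohesin ring, and HIM-8 is a zinc finger protein bound to the pairing centre of the X chromosome. Because these proteins act in germ cells, the genes serve as a readout of the meiotic germline within whole-animal RNA.

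Polyadenylated RNA was prepared from whole one-day-old adults grown at 20 °C, 68 h after release from L1 arrest, with 50000 synchronized animals per sample and 3 biological replicates per genotype. Wild-type was strain N2, *hrde-1(tm1200)*, strain USC661, is a mutant of a nuclear Argonaute protein of the germline, and *hrde-2(qe20)*, strain FD53, is a mutant of a germ granule protein with a part in loading HRDE-1. The mRNA libraries were made to ask whether HRDE-1 affects genes targeted by the Argonaute CSR-1 when HRDE-2 is missing. In whole-animal RNA, fewer germ cells and less mRNA per germ cell cannot be told apart.

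Libraries held 5801326 to 11884233 counts, and a member had between 147 and 1389 counts per library. Ribosomal RNA took 19.35 to 25.42% of the counts in wild-type libraries, 25.57 to 28.54% in those of *hrde-1*, all above wild-type, and 20.04 to 31.4% in those of *hrde-2*. Removing it before scaling changed no member's call. Levels are given as CPM, counts per 1000000 counts of the library size scaled by TMM (trimmed mean of M-values). The mutated genes were checked first: *hrde-1* was at 108 to 144 CPM in its mutant, below the 201 to 355 CPM of wild-type, and *hrde-2* was at 14.4 to 19.4 CPM in its mutant, below the 23.0 to 52.2 CPM of wild-type. Germline genes were detected in every library, none of the 22 genes of a germline reference list being at 0. Wild-type replicate 1 stood apart from the other wild-type libraries. Its summed germline reference level was 3042 CPM, against 4344 and 5035 CPM in the other wild-type libraries, and its summed level of 15 oocyte markers was 3061 CPM, against 5968 and 6591 CPM. Results that rest on it are therefore also given without it.

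On the WBcel235 genome, in the WS258 annotation the counts were made with, the 10 protein-coding genes lie on chromosomes I, IV and V. Among the central region genes, *syp-1* and *syp-2* both lie on the plus strand of chromosome V, the former from 16405751 to 16407699 and the latter from 5536681 to 5537713. *syp-3* lies on the minus strand of chromosome I from 8663048 to 8664143, and *syp-4* on the plus strand of that chromosome from 6847511 to 6849923. The axis genes *him-3* and *htp-1* lie on chromosome IV, the former on the plus strand from 6977517 to 6978943 and the latter on the minus strand from 5390184 to 5391557. *htp-3* spans chromosome I from 4827072 to 4829794 on the plus strand. The kleisin gene *rec-8* spans chromosome IV from 13348870 to 13353193 on the minus strand, and *coh-3* lies on the plus strand of chromosome V from 14457475 to 14460136. The pairing gene *him-8* lies on the plus strand of chromosome IV from 10561905 to 10563947. Counting ignored strand and left out reads that matched several genes. *syp-3* shares 80 of its 890 exon bases with *mrt-1* on the opposite strand, *him-3* shares 8 of 1168 with *prkl-1*, and the other members share none. *htp-1* and *coh-3* each have a close relative, *htp-2* and *coh-4*, so reads from the stretches that the relatives have in common were lost and the levels of these genes are uncertain.

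Levels of different genes were compared per length, as RPKM (reads per kilobase of exon per 1000000 counts). In wild-type, *htp-1* was the most abundant of the 10 mRNAs at 92.0 ± 5.7 RPKM (SD, n = 3), above 90.9% of the genes tested. *him-3* followed at 64.3 ± 19.6 RPKM and *syp-2* at 62.6 ± 18.5 RPKM. The central region genes differed among themselves, with *syp-3* at 47.4 ± 7.1 RPKM, *syp-4* at 34.7 ± 15.6 RPKM and *syp-1* at 22.4 ± 9.1 RPKM. *him-8* stood at 41.02 ± 12.4 RPKM and *htp-3* at 24.3 ± 3.9 RPKM. The kleisin mRNAs were the least abundant per length, *rec-8* at 18.9 ± 4.6 RPKM and *coh-3* at 12.6 ± 0.71 RPKM. As reads shared with *coh-4* were lost, the place of *coh-3* is uncertain in every genotype. Between neighbours in this order the wild-type libraries did not overlap only at its ends, for *htp-1* over *him-3* and for *rec-8* over *coh-3*. *htp-1* was also the highest and *coh-3* the lowest in both mutants, at 59.9 and 14.96 RPKM in *hrde-1* and at 69.8 and 16.3 RPKM in *hrde-2*. In *hrde-1* the libraries of *htp-1* overlapped those of *him-3*, at 48.1 ± 6.0 RPKM. *syp-4* moved from the sixth place in wild-type to the third in *hrde-2*, at 45.4 ± 9.7 RPKM, where its libraries overlapped those of *syp-2* at 42.5 ± 6.0 RPKM.

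**Figure D1:**
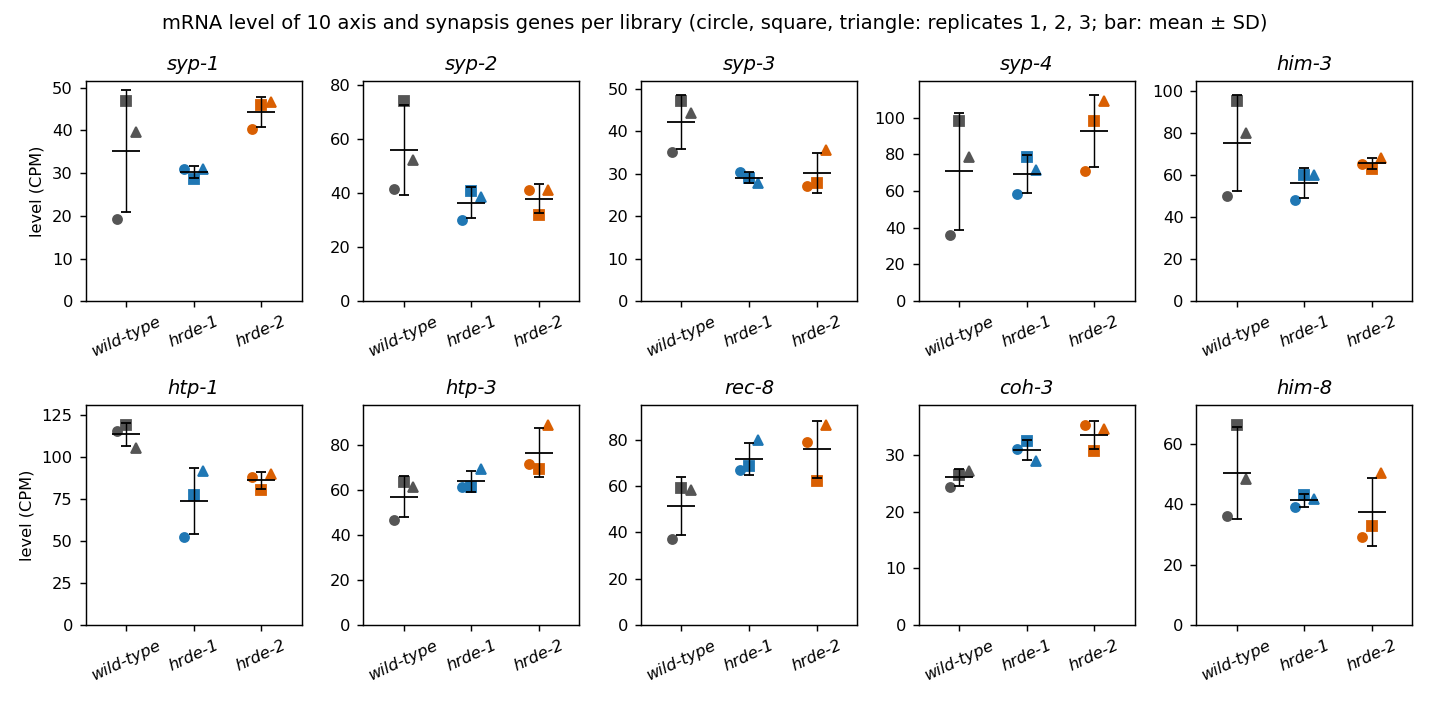
The level of each of the 10 genes in CPM (vertical axis, from 0) is plotted for every library of wild-type, *hrde-1* and *hrde-2*, with the mean and SD of 3 replicates as a bar. Wild-type replicate 1 (circle) is the lowest wild-type library for 9 of the genes, *htp-1* being the exception, and for *htp-1* and *syp-2* all mutant libraries are below all wild-type libraries.

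Of the central region genes, *syp-2* stood at 41.6, 74.1 and 52.2 CPM across the wild-type replicates 1 to 3 (this order is kept throughout), at 29.9, 40.7 and 38.8 CPM across those of *hrde-1*, and at 41.04, 31.8 and 41.2 CPM across those of *hrde-2*. All 6 mutant libraries lay below all 3 wild-type libraries, although the lowest wild-type library and the highest *hrde-2* library were close. The log2 fold change was −0.62 ± 0.24 (SE) in *hrde-1* and −0.56 ± 0.24 in *hrde-2*, with adjusted p of 0.199 and 0.141 in edgeR's quasi-likelihood test, so neither passed. *syp-3* stood at 35.1, 47.1 and 44.3 CPM across the wild-type replicates, at 30.4, 29.1 and 27.8 CPM across those of *hrde-1*, and at 27.0, 27.7 and 35.6 CPM across those of *hrde-2*. Its *hrde-1* libraries lay below those of wild-type, and its *hrde-2* libraries overlapped them by 1 library. The log2 fold changes of −0.54 ± 0.20 and −0.49 ± 0.20 had adjusted p of 0.188 and 0.123 in edgeR.

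The other central region genes did not share that pattern. *syp-1* stood at 19.3, 46.9 and 39.6 CPM across the wild-type replicates, at 30.9, 28.6 and 31.1 CPM across those of *hrde-1*, and at 40.3, 46.0 and 46.7 CPM across those of *hrde-2*. The wild-type libraries spread over the range of both mutants, while the *hrde-2* libraries all lay above the *hrde-1* libraries. *syp-4* stood at 36.0, 98.4 and 78.4 CPM across the wild-type replicates, at 58.3, 78.6 and 71.4 CPM across those of *hrde-1*, and at 70.8, 98.4 and 109 CPM across those of *hrde-2*. It had the widest spread among the wild-type libraries, with an SD of 44.9% of the mean, and all groups overlapped. In *hrde-1* the log2 fold change was −0.23 (95% interval −0.81 to 0.36) for *syp-1* and −0.03 (−0.70 to 0.63) for *syp-4*. In *hrde-2* it was 0.33 (−0.25 to 0.91) for *syp-1* and 0.39 (−0.28 to 1.05) for *syp-4*.

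Among the HORMA domain genes, *htp-1*, which acts in the control of pairing and synapsis, stood at 116, 119.3 and 106 CPM across the wild-type replicates, at 52.6, 77.2 and 91.9 CPM across those of *hrde-1*, and at 87.9, 80.4 and 90.2 CPM across those of *hrde-2*. Every mutant library was below every wild-type library, and wild-type replicate 1 was not set apart here. The log2 fold change was −0.62 ± 0.21 in *hrde-1* and −0.40 ± 0.21 in *hrde-2*, with adjusted p of 0.161 and 0.234 in edgeR. *htp-2*, the close relative of *htp-1*, stood at 58.3, 63.2 and 67.1 CPM across the wild-type replicates, at 34.2, 47.1 and 51.2 CPM across those of *hrde-1*, and at 67.7, 64.8 and 68.2 CPM across those of *hrde-2*. Unlike *htp-1*, it was within or just above the wild-type range in *hrde-2*, with a log2 fold change of 0.09 (95% interval −0.32 to 0.50).

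*him-3*, which encodes an axis protein needed for homologous synapsis, stood at 50.2, 95.2 and 80.0 CPM across the wild-type replicates, at 48.0, 60.2 and 60.2 CPM across those of *hrde-1*, and at 65.5, 63.0 and 68.2 CPM across those of *hrde-2*. Both mutants lay between wild-type replicate 1 and the other wild-type libraries, except for *hrde-1* replicate 1, which was lower than all. *htp-3*, which encodes the axis protein that recruits the other HORMA domain proteins, stood at 46.4, 63.3 and 61.2 CPM across the wild-type replicates, at 61.2, 61.0 and 69.0 CPM across those of *hrde-1*, and at 71.2, 69.3 and 88.8 CPM across those of *hrde-2*. Its *hrde-2* libraries lay above those of both other genotypes. The log2 fold change of *him-3* was −0.42 ± 0.23 in *hrde-1* and −0.20 ± 0.23 in *hrde-2*, with adjusted p of 0.339 and 0.619. For *htp-3* it was 0.16 ± 0.19 and 0.42 ± 0.19, with adjusted p of 0.677 and 0.171 in edgeR.

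Both kleisin genes were at higher mean levels in the mutants. *rec-8* stood at 36.9, 59.2 and 58.1 CPM across the wild-type replicates, at 67.0, 68.4 and 79.6 CPM across those of *hrde-1*, and at 78.9, 62.3 and 86.4 CPM across those of *hrde-2*. *coh-3* stood at 24.4, 26.5 and 27.3 CPM across the wild-type replicates, at 31.0, 32.5 and 29.0 CPM across those of *hrde-1*, and at 35.4, 30.7 and 34.6 CPM across those of *hrde-2*. For both genes all 6 mutant libraries were above all 3 wild-type libraries, and the mutants overlapped each other. The log2 fold change of *rec-8* was 0.48 ± 0.22 in *hrde-1* and 0.56 ± 0.22 in *hrde-2*, with adjusted p of 0.272 and 0.115, and that of *coh-3* was 0.24 ± 0.18 and 0.36 ± 0.18, with adjusted p of 0.479 and 0.199 in edgeR. *coh-4*, which encodes a kleisin nearly identical to COH-3, was at 12.6 to 15.9 CPM across wild-type, 13.7 to 17.3 CPM across *hrde-1* and 17.7 to 20.5 CPM across *hrde-2* libraries. Its *hrde-2* libraries were above those of both other genotypes, with a log2 fold change against wild-type of 0.45 ± 0.21 and an adjusted p of 0.190.

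*him-8* stood at 36.1, 66.5 and 48.4 CPM across the wild-type replicates, at 39.05, 43.1 and 41.8 CPM across those of *hrde-1*, and at 29.2, 32.8 and 50.3 CPM across those of *hrde-2*. All 3 genotypes overlapped. The log2 fold change was −0.29 (95% interval −0.84 to 0.27) in *hrde-1* and −0.43 (−0.98 to 0.13) in *hrde-2*.

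Read as a group, none of the 10 genes was called in *hrde-1* against wild-type at an adjusted p under 0.05, where 1.55% of the 12141 genes tested were called. At an unadjusted p under 0.05 there were 4, *syp-2*, *syp-3* and *htp-1* lower and *rec-8* higher, a share to be read beside 18.2% of all genes. The members ranged from −0.62 to 0.48 on the log2 scale with a median of −0.26, against −0.03 for all genes tested. In *hrde-2* against wild-type none of the 10 was called either, where 11.8% of all genes were called. At an unadjusted p under 0.05 there were again 4, *syp-2* and *syp-3* lower and *htp-3* and *rec-8* higher, beside 27.8% of all genes. Here the median was 0.06, against −0.10 for all genes, with 5 members above 0, beside 5272 of 12141 genes, and 5 below. DESeq2's Wald test called none of the 10 in any comparison.

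The libraries of *hrde-1* and wild-type did not overlap for 3 genes that were lower and 2 that were higher, where 9.97% and 12.8% of all genes were so placed. In *hrde-2* these were 2 lower and 3 higher, beside 16.4% and 15.7% of all genes. The 95% intervals set the limit of what could be seen. They reached at most to a 2.2-fold lower and a 1.94-fold higher level in *hrde-1*, and to a 2.1-fold lower and a 2.07-fold higher level in *hrde-2*.

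**Figure D2:**
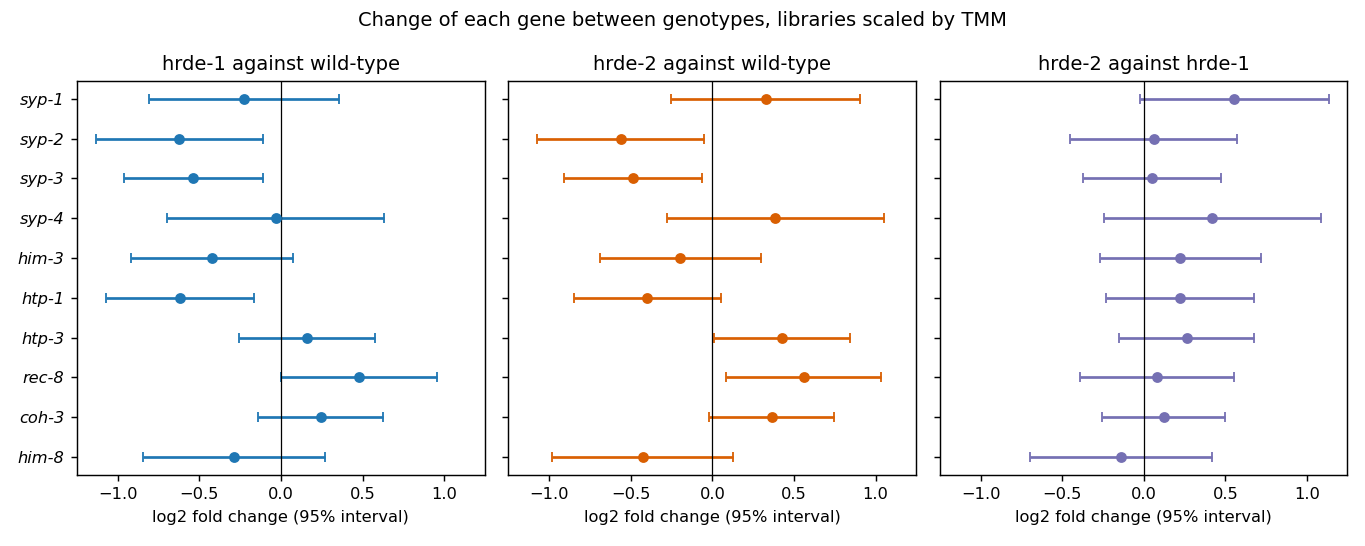
Points give the log2 fold change of each gene in *hrde-1* against wild-type, *hrde-2* against wild-type and *hrde-2* against *hrde-1*, and lines give 95% intervals from edgeR's fit of 9 libraries. No adjusted p was under 0.05. Estimates span −0.62 to 0.48, −0.56 to 0.56 and −0.14 to 0.55, with *syp-2* lowest and *rec-8* highest in both mutants against wild-type.

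Several of these calls turned on wild-type replicate 1. Without it, *syp-2*, *syp-3* and *him-3* were lower in *hrde-1* than in wild-type, with log2 fold changes of −0.76 ± 0.19, −0.62 ± 0.17 and −0.61 ± 0.15 and adjusted p of 0.0209, 0.0275 and 0.0192 in edgeR. That is 3 of 10 members, where 7.11% of 12533 genes were then called lower. In *hrde-2*, *syp-2* and *syp-3* were lower, by −0.65 ± 0.19 and −0.52 ± 0.17 with adjusted p of 0.0267 and 0.0393, where 8.90% of genes were called lower. No member was called higher in either mutant without that library. The members' median was then −0.47 for *hrde-1* and −0.10 for *hrde-2*, against 0.09 and 0.04 for all genes. Wild-type then rests on 2 libraries. The removed library was the lowest of wild-type for every member except *htp-1*, so its removal alone lowers most of these fold changes. Fits that each left out 1 library gave *syp-2* −0.76 to −0.34 in *hrde-1*, with adjusted p up to 0.504 in edgeR. For *syp-3* they gave −0.62 to −0.42 and for *him-3* −0.61 to −0.19, with adjusted p up to 0.391 and 0.721. In *hrde-2* they gave −0.65 to −0.28 for *syp-2* and −0.62 to −0.34 for *syp-3*, with adjusted p up to 0.467 and 0.443.

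The 10 genes were next set against other germline mRNAs. Their summed level was 442, 696 and 595 CPM across wild-type, 448, 519 and 541 CPM across *hrde-1*, and 547, 542 and 651 CPM across *hrde-2* libraries, and the genotypes overlapped. The summed level of the 22 germline reference genes, among them *glp-1*, *gld-1*, *pgl-1* and *glh-1*, spanned 3042 to 5035 CPM across wild-type, 4982 to 5758 CPM across *hrde-1* and 5335 to 6471 CPM across *hrde-2* libraries. As a percentage of that sum, the members stood at 14.5%, 13.8% and 13.7% in wild-type, at 9.0%, 10.2% and 9.39% in *hrde-1*, and at 9.43%, 10.2% and 10.1% in *hrde-2*. All 6 mutant libraries were below all 3 wild-type libraries, and wild-type replicate 1 was not set apart by this measure. Such sums weigh each gene by its level, and mean wild-type levels of the reference genes ran from 17.9 to 741 CPM. The percentage therefore leans on the most abundant reference genes. The means were 14.02 ± 0.44% (SD, n = 3), 9.55 ± 0.64% and 9.89 ± 0.40%. In *hrde-2* the mean sum of the members, 580 ± 61.3 CPM, was close to the 578 ± 128 CPM of wild-type, while that of the reference genes was 5869 ± 571 against 4140 ± 1012 CPM. In *hrde-1* the means were 503 ± 48.3 CPM for the members and 5269 ± 425 CPM for the reference genes. Against wild-type, 20 of the 22 reference genes had a log2 fold change above 0 in each mutant, with medians of 0.37 in *hrde-1* and 0.43 in *hrde-2*. Of the 12141 genes tested, 5797 were above 0 in *hrde-1* and 5272 in *hrde-2*. However, edgeR called 0 reference genes in *hrde-1*, beside 150 of all genes called higher. At an unadjusted p under 0.05 there were 5, all higher, beside 1176 of all genes higher. In *hrde-2*, 4 reference genes were called higher, beside 919 of all genes. Those of smallest adjusted p were the helicase genes *glh-4* (0.67 ± 0.17) and *glh-1* (0.85 ± 0.23) and *cpb-3* (0.69 ± 0.19), with adjusted p from 0.0248 to 0.0337 in edgeR, and *glh-1* was also higher in *hrde-2* than in *hrde-1* (0.97 ± 0.23, adjusted p = 0.0321). Without wild-type replicate 1 the reference medians were 0.19 in *hrde-1* and 0.36 in *hrde-2*. Of the reference genes 2 and 8 were then called higher, beside 767 and 1682 of 12533 genes, and 0 were called lower.

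**Figure D3:**
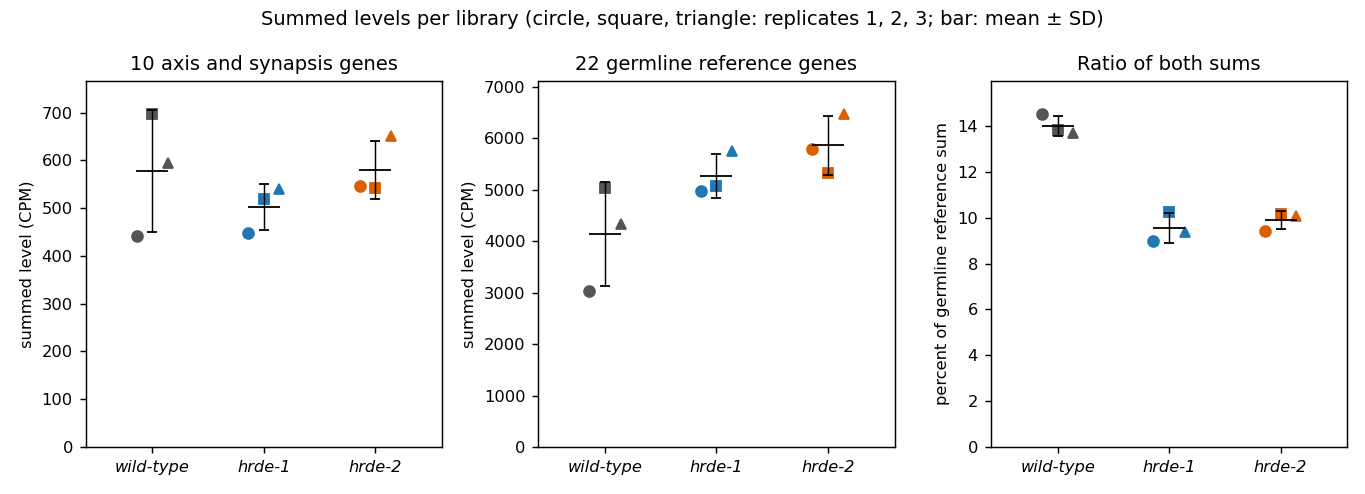
Summed CPM of the 10 axis and synapsis genes (left), of 22 germline reference genes (middle) and the former as a percentage of the latter (right) are plotted for each library, with the mean and SD of 3 replicates, on axes that start at 0. The summed levels of the 10 genes overlap between genotypes, while the percentage is 13.7 to 14.5 in wild-type and 9.0 to 10.2 in the mutants.

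When libraries were scaled to the germline reference genes in place of TMM, the median of all genes tested moved to −0.44 in *hrde-1* and −0.60 in *hrde-2*, so that a gene that kept pace with the whole transcriptome took a negative value. The reference genes themselves had TMM medians of 0.37 in *hrde-1* and 0.43 in *hrde-2*. Holding that list near 0 shifts values against wild-type down across the transcriptome, also for genes that rose with the list. Calls on this scale are therefore relative to the list. On that scale 4 of the 10 members were called lower in *hrde-1*, where 13.3% of all genes were. They were *syp-2* (log2 fold change −0.97 ± 0.17), *syp-3* (−0.91 ± 0.16), *him-3* (−0.76 ± 0.14) and *htp-1* (−1.05 ± 0.23), with adjusted p from 0.0102 to 0.0178 in edgeR. In *hrde-2*, 5 were called lower, where 27.4% of all genes were. The 5 were *syp-2* (−1.01 ± 0.17), *syp-3* (−0.96 ± 0.16), *him-3* (−0.63 ± 0.13), *htp-1* (−0.91 ± 0.23) and *him-8* (−0.88 ± 0.19), with adjusted p from 0.00481 to 0.0167. The value of *him-3* in *hrde-2* was close to the median of all genes. *rec-8* stood at 0.12 and 0.10 in the mutants, and *htp-3* and *coh-3* at −0.21 and −0.15 in *hrde-1* and at −0.05 and −0.13 in *hrde-2*. The members' median was −0.58 in *hrde-1*, below that of all genes, and −0.38 in *hrde-2*, above it. That order turned in *hrde-2* when wild-type replicate 1 was left out on the same scale, where the members' median was −0.44 against −0.30 for all genes, while in *hrde-1* it was −0.65 against −0.091. In that fit 6 members were called lower in *hrde-1*, beside 2127 of all 12533 genes tested, and 5 in *hrde-2*, beside 3358. Scaled to 28 meiotic recombination genes, a choice made after these values were seen, none of the 10 was called in any comparison.

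**Figure D4:**
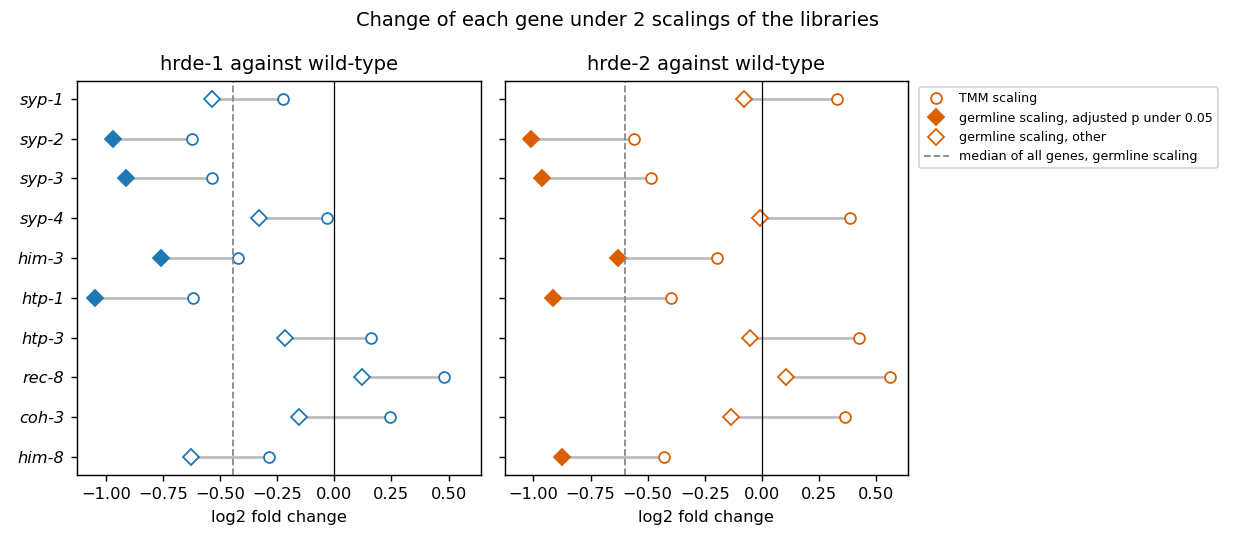
For each gene, the circle gives the log2 fold change with TMM scaling and the diamond that with libraries scaled to 22 germline reference genes, filled where the adjusted p was under 0.05. The dashed line marks the median of all genes on the germline scale, −0.44 for *hrde-1* and −0.60 for *hrde-2*. The filled diamonds are 4 genes in *hrde-1* and 5 in *hrde-2*.

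Ratios within a library do not depend on how libraries are scaled, and those given here were chosen after the values were seen, so they are described with no test. Per length, *htp-3* mRNA was 0.211, 0.279 and 0.305 of *htp-1* in wild-type, 0.611, 0.416 and 0.395 in *hrde-1*, while it was 0.427, 0.453 and 0.518 in *hrde-2*. Relative to *him-3*, *htp-3* was 0.391 ± 0.065 across wild-type, 0.570 ± 0.065 across *hrde-1* and 0.579 ± 0.060 across *hrde-2* libraries (SD, n = 3). For both ratios every mutant library exceeded every wild-type library. The balance of *htp-1* to *htp-2* was 2.02, 1.93 and 1.61 in wild-type, 1.57, 1.67 and 1.83 in *hrde-1*, and 1.32, 1.26 and 1.35 in *hrde-2*. It was thus lower in the *hrde-2* libraries than in any other library. Like the ratio of *coh-3* to *coh-4*, it rests on stretches where the genes differ, as shared reads were lost. The ratio of *coh-3* to *coh-4* was 1.68 ± 0.23, 1.76 ± 0.12 and 1.57 ± 0.23 in the same order of genotypes, and overlapped between all of them.

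The central region mRNAs also differed in their proportions. *syp-1* was 0.263, 0.359 and 0.431 of *syp-2* in wild-type, 0.587, 0.399 and 0.455 in *hrde-1*, and 0.558, 0.822 and 0.643 in *hrde-2*. *syp-4* was 0.447, 0.911 and 0.770 of *syp-3* in wild-type, 0.836, 1.18 and 1.12 in *hrde-1*, and 1.14, 1.55 and 1.33 in *hrde-2*. Both ratios were higher in all *hrde-2* libraries than in all wild-type libraries, and *hrde-1* overlapped with wild-type in both. The kleisin ratio of *rec-8* to *coh-3*, at 1.49 ± 0.30, 1.77 ± 0.27 and 1.71 ± 0.18, overlapped between genotypes.

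Between the mutants, 9 of the 10 genes had a log2 fold change above 0 in *hrde-2* against *hrde-1*, beside 5979 of 12141 genes. Their median was 0.17 against −0.01 for all genes, and none was called, where 5.67% of all genes were. No member had an unadjusted p under 0.05, beside 20.0% of all genes. The largest value was that of *syp-1*, 0.55 ± 0.27 with an adjusted p of 0.276 in edgeR. *syp-1*, *him-3* and *htp-3* were higher in all *hrde-2* libraries than in all *hrde-1* libraries, beside 16.8% of all genes. The wild-type libraries contribute to the spread used by this test. Fitted on the 6 mutant libraries with replicate number as a block, *syp-1* was called higher (0.55 ± 0.14, adjusted p = 0.0176), as was *syp-4* (0.41 ± 0.12, adjusted p = 0.0416), where 8.97% of 11801 genes were called higher. Without the block *syp-1* was called on those libraries (adjusted p = 0.0239, beside 7.08% of genes) and *syp-4* was not, and with the block on all 9 libraries neither was. *syp-1* was also called when wild-type replicate 1 was left out (0.60 ± 0.14, adjusted p = 0.0113), where 8.23% of genes were called higher.

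Other genes of meiotic prophase were described from lists of their own. The counts of these lists in *hrde-2* are to be read beside the 11.8% of all genes called there against wild-type. Of 9 further axis and central region genes, 1 was called: *cra-1*, which is needed for assembly of the synaptonemal complex, rose in *hrde-2* from 72.4 ± 2.6 to 126 ± 5.2 CPM (1.75-fold, log2 fold change 0.80 ± 0.17, adjusted p = 0.00795 in edgeR). In *hrde-1*, 7 of the 9 had a log2 fold change below 0, beside 6344 of 12141 genes, with a median of −0.32. Between the mutants 8 of the 9 were above 0, as were 23 of the 28 recombination genes, beside 5979 of all genes. Of 9 cohesin subunits and loaders that also act outside meiosis, 1 was called: *pqn-85*, the relative of the cohesin loader NIPBL, rose in *hrde-2* from 78.8 ± 13.7 to 132 ± 12.1 CPM (adjusted p = 0.0240). The medians of this list were 0.45 for *hrde-1* and 0.57 for *hrde-2*. Of 9 genes of pairing centres and chromosome movement, 2 were called, both higher in *hrde-2* than in wild-type. *chk-2*, a kinase that starts pairing and synapsis, rose from 6.23 ± 0.76 to 12.2 ± 2.1 CPM (adjusted p = 0.0425), and *dhc-1*, the dynein heavy chain, rose from 221 ± 37.2 to 379 ± 35.9 CPM (adjusted p = 0.0245).

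No gene of 28 in meiotic recombination and none of 17 in meiotic chromosome segregation was called in any comparison by edgeR with TMM scaling, genotype as the only term and all 9 libraries. With the replicate block on 9 libraries, edgeR called 1 segregation gene higher in *hrde-2* than in wild-type, beside 865 of 12141 genes. With the block on 6 libraries it called 4, beside 1082 of 11856 genes. Between the mutants, that block on 6 libraries called 1 recombination gene higher in *hrde-2*, beside 1058 of 11801 genes. Scaled to the germline reference genes, 6 recombination genes and 1 segregation gene were lower in *hrde-1* and 7 and 4 in *hrde-2*, beside 13.3% and 27.4% of all genes. DESeq2's Wald test called 4 segregation genes higher in *hrde-2* against wild-type and no other segregation or recombination gene. It also called 4 cohesin and 3 pairing and movement genes higher in *hrde-2*, beside 1297 of 19782 genes. Those 19782 are all genes with any count, low ones included, while edgeR tested 12141. In *hrde-1* it called 2 and 1 of them higher, beside 386 genes. Of the further axis and central region genes it called 1 lower in *hrde-1*, 1 higher in *hrde-2* and 1 higher between the mutants. Beside these stood 137, 1297 and 628 of all genes in the same order. At an unadjusted p under 0.05 the recombination list held 5 genes in *hrde-1* and 4 in *hrde-2*, with medians of −0.11 and 0.15. The segregation list held 5 and 8, with medians of 0.37 and 0.47. In both lists no gene was called between the mutants on all 9 libraries without the block, where at an unadjusted p under 0.05 there were 0 and 0. Without wild-type replicate 1 more genes of these lists were called, and 3 medians against wild-type changed sign: that of the pairing and movement list in *hrde-1* (0.17 to −0.11), that of the recombination list in *hrde-2* (0.15 to −0.028) and that of the further axis and central region genes in *hrde-2* (0.06 to −0.19). In *hrde-1* against wild-type, 3 of the further axis and central region genes and 5 of the recombination genes were then lower and none of either list was higher, beside 7.11% of genes called lower. The other lists were mixed there, beside 767 of 12533 genes called higher. Of the cohesin genes 2 were higher and 1 lower, of the pairing and movement genes 1 and 2, and of the segregation genes 1 and 2. In *hrde-2*, 4 cohesin, 3 pairing and movement and 6 segregation genes were then higher than in wild-type, and 0, 0 and 2 of these lists were lower, beside 13.4% of genes called higher and 8.90% called lower. Of the further axis and central region genes 1 was then higher and 1 lower, and of the recombination genes 1 was higher and 3 were lower. Set side by side on all 9 libraries, the lists at the chromosome axis had lower medians in *hrde-1* than the cohesin, segregation and germline reference lists, a description with no test between lists.

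**Figure D5:**
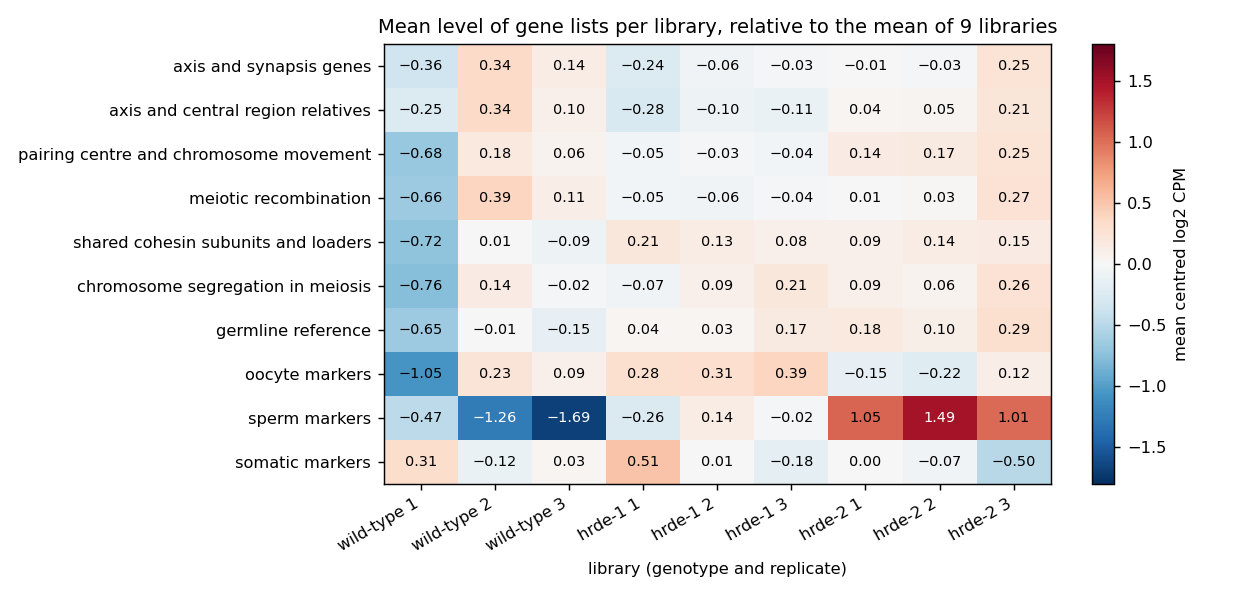
Each cell gives the mean over a list's tested genes of log2 CPM, centred per gene on the mean of the 9 libraries (colour scale, log2 units), for libraries in columns and lists in rows. Wild-type replicate 1 is lowest of the 9 libraries for every meiotic and germline list other than the relatives of the axis and central region, at −0.36 for the 10 axis and synapsis genes, and the sperm markers are highest in *hrde-2*.

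Markers of other cells moved with genotype beside these values. The summed level of 19 sperm markers spanned 49.5 to 140 CPM across wild-type, 115 to 159 CPM across *hrde-1* and 336 to 460 CPM across *hrde-2* libraries, with 0 to 3 of the markers at 0 per library. Of the 16 that were tested, *hrde-1* had 2 called higher and *hrde-2* had 12, beside 150 and 919 of the 12141 genes tested. Those called in *hrde-1* were *spe-41*, a sperm calcium channel gene, and *gsp-3*, a sperm phosphatase gene, with log2 fold changes of 2.18 ± 0.31 and 1.77 ± 0.40. In *hrde-2* those of smallest adjusted p were *spe-41* (2.80 ± 0.31), *smz-2* (2.86 ± 0.33) and *gsp-3* (3.11 ± 0.40). Between the mutants 8 were higher in *hrde-2*, beside 391 of all genes tested, led by *smz-2* (1.86 ± 0.31), *gsp-4* (1.72 ± 0.34) and *sss-1* (1.97 ± 0.39). Of 15 oocyte markers, 1 was called: *perm-2*, an eggshell gene, fell in *hrde-2* from 608 ± 17.1 to 386 ± 74.5 CPM, and it was also lower than in *hrde-1*. The oocyte sums spanned 3061 to 6591 CPM across wild-type, 7212 to 7666 CPM across *hrde-1* and 4705 to 6243 CPM across *hrde-2* libraries. Of 19 somatic markers tested, *vit-2*, *vit-6* and *tnt-2* were called lower in *hrde-2* than in wild-type and the first 2 also than in *hrde-1*, and the somatic sums spanned 39007 to 54731 CPM across wild-type, 43328 to 75990 CPM across *hrde-1* and 22920 to 34919 CPM across *hrde-2* libraries. Without wild-type replicate 1, *hrde-1* had 11 sperm markers called higher and *hrde-2* had 13, beside 767 and 1682 of 12533 genes. Of the oocyte markers 1 was then higher and 1 lower in *hrde-1*, and 2 were lower in *hrde-2*. Of the somatic markers none was called lower and 2 were called higher in *hrde-2* against wild-type. The part of these cell types in the levels of the axis and synapsis genes was not tested.

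Across the 9 libraries the 10 genes did not vary as one. The correlation of a gene with the mean of the other 9 members in log2 CPM, given as a description over libraries that differ in genotype and depth, was highest for *him-3* (Pearson's r = 0.89) and was 0.78 for *syp-4* and 0.76 for *syp-1*. It was lowest for *coh-3* (0.11), *htp-1* (0.24) and *rec-8* (0.33). The genes outside the group that most resembled its mean profile over the same 9 libraries were *npp-2* (r = 0.98), *asb-1* (0.97), *mrps-15* (0.97), *smu-2* (0.97) and *F25H8.2* (0.97), chosen by that value from all genes tested.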

How the data were processed

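Polyadenylated RNA of 9 whole-animal samples was sequenced as single-end reads. The authors trimmed reads with Trimmomatic 0.39, aligned them with HISAT2 2.2.1 and deposited whole-number counts per gene from featureCounts (Subread 2.0.1) over WS258 exons. Per the file headers, neither strand nor multi-mapping options were set, and the deposited exon length of each gene (another unit, in bases) was used for RPKM. Groups came from sample titles.

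The analysis used edgeR 4.0.16 under R 4.3.3, with filterByExpr, TMM scaling, a robust quasi-likelihood fit of all 9 libraries with genotype as the only term, and Benjamini-Hochberg adjustment over 12141 genes. Standard errors were derived from the F statistic. The study's tool, DESeq2 (version 1.42.0 here), was an alternative. The procedure was tested on simulated data. The members and gene lists were chosen with earlier results of these data known. The rule for names took all members, *htp-2*, *coh-4*, the mutated genes, per list up to 3 called genes of smallest adjusted p in each comparison, and the 5 genes most like the members' mean. Lists without a call name none. The sperm list held 1 gene under both of its names (*spe-41* and *trp-3*), which was counted once.

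Replicates with the same number deviated together only between the mutants (correlations of 0.145, 0.114 and 0.249), which is a hint from the data since no label states a shared batch. For *hrde-1* and wild-type the correlations were −0.062, −0.0931 and −0.0442, and for *hrde-2* and wild-type 0.0931, −0.253 and 0.199. Alternatives were other scalings, filters, tests, samples, a replicate block, a stricter threshold and leaving out each library. Scaling to germline genes without wild-type replicate 1, and to recombination genes, was added after seeing the data.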

Additional observations from a re-analysis of the deposited data

How the results depend on the processing

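With TMM scaling, 188, 1435 and 688 genes were called in *hrde-1* against wild-type, *hrde-2* against wild-type and *hrde-2* against *hrde-1*, and 0 of the 10 members in each. Scaled to germline reference genes, 1739, 3917 and 90 genes were called, with 4 members lower in *hrde-1*, 5 lower in *hrde-2*, and members' medians of −0.58 and −0.38. When wild-type replicate 1 was also left out, 2645, 4448 and 1563 genes were called, with 6 and 5 members lower than in wild-type (beside 2127 and 3358 of 12533 genes), medians of −0.65 and −0.44, and 1 member higher between the mutants. Scaled to recombination genes, 64, 229 and 43 genes were called. With no filter 659 genes were called in *hrde-1* and 1372 between the mutants, and with at least 10 counts in every library 62, 527 and 158. DESeq2 called 523 and 1090 genes in *hrde-1* and between the mutants. At an adjusted p under 0.01, 86, 610 and 140 genes remained past the threshold. With only the 6 libraries compared, 112 and 1393 genes were called in *hrde-1* and between the mutants, with 1 member higher between them. The replicate block on those libraries gave 51 and 1958 genes, with 2 members higher between the mutants. The block changed no other member's call.

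Leaving out 1 library at a time, 105 to 1658, 617 to 2797 and 90 to 1617 genes were called. Members called lower numbered 0 to 3 in *hrde-1* and 0 to 2 in *hrde-2*, members called higher between the mutants 0 to 1, and the median in *hrde-1* ranged from −0.47 to 0.031, the highest without wild-type replicate 2. Those left-out ranges crossed 0 for *syp-1* (−0.49 to 0.067) and *syp-4* (−0.32 to 0.31) in *hrde-1*, for *him-3* (−0.34 to 0.031) in *hrde-2*, and between the mutants for *syp-2* (−0.027 to 0.19), *syp-3* (−0.090 to 0.18), *rec-8* (−0.025 to 0.21) and *him-8* (−0.41 to 0.065).

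Other changes of sign were all of uncalled values. Germline scaling turned *htp-3* (−0.21) and *coh-3* (−0.15) in *hrde-1*, *syp-1* (−0.077), *syp-4* (−0.010), *htp-3* (−0.051) and *coh-3* (−0.13) in *hrde-2*, and *syp-2* (−0.038), *syp-3* (−0.054) and *rec-8* (−0.018) between the mutants. Without wild-type replicate 1 as well, *htp-3* (−0.13) in *hrde-1*, *syp-1* (−0.23) and *syp-4* (−0.19) in *hrde-2*, and *syp-2* (−0.046), *syp-3* (−0.062) and *rec-8* (−0.027) between the mutants were negative. Recombination scaling turned *syp-4* (0.057) in *hrde-1* and *syp-2* (−0.090), *syp-3* (−0.11), *rec-8* (−0.073) and *coh-3* (−0.023) between the mutants. *syp-4* in *hrde-1* was also 0.036 with at least 10 counts in every library, and 0.057 and 0.10 with the replicate block on 9 and 6 libraries. The cause of these changes was not tested. With a biological coefficient of variation of 27.0%, the spread between replicates limits the smallest difference that can be seen.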
